A study of Mus musculus with 11 samples.

Results

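The genes described here are 53 germline and meiosis genes of the mouse, listed by symbol for their known roles in germ cells. The list was drawn up with earlier results of these data known, and membership uses no measured value. All 53 had a row in every deposited file, among 23284 genes listed. They were compared between 5 groups of mouse embryonic stem cells (ESCs), cultured on gelatin in serum medium with leukaemia inhibitory factor. Wild-type cells (WT) and cells knocked out for Tet1, Tet2 and Tet3 (TKO), the dioxygenases that oxidise 5-methylcytosine, were sampled before treatment (0 h) and 4 h into treatment with α-amanitin at 10 µg/ml, which blocks transcription by RNA polymerase II. Each of these 4 groups has 2 ribodepleted total RNA libraries. The fifth group holds 3 polyA-selected libraries of WT cells given no inhibitor. The TKO line had been made earlier, and whether it is 1 clone is not given in the sources used here. The study describes the α-amanitin libraries as biological duplicates, and for the polyA libraries the sources used here do not say whether replicates came from separate cultures, so the spread between those may be technical.

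Germ cells pass through erasure of DNA methylation, entry into meiosis, pairing of chromosomes by the synaptonemal complex and repair of programmed breaks. In their cytoplasm, Piwi proteins loaded with small piRNAs and a family of Tudor-domain proteins hold transposons in check. In most other cells the promoters of many such genes are CpG-rich, methylated and silent, and several are also bound by repressive complexes that read an E-box or an E2F site.

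The libraries held 72639837 to 82129168 reads assigned to genes with polyA selection and 25507874 to 29781366 with ribodepletion, as recovered from the steps of the TPM values. TPM is a length-corrected share of a library, so levels can be set beside each other between genes. In TKO libraries at 0 h, Tet1 lay at 32.3 and 32.8 TPM against 148 and 123 in WT, and Tet2 at 8.32 and 7.79 against 57.2 and 47.7. Tet3 was low in both, at 1.498 and 1.64 TPM in TKO and 1.46 and 1.47 TPM in WT, and was not lower in TKO. All 8 ESC markers examined were present, of which Esrrb, Klf4 and Zfp42 were called lower in TKO. Of 8 spermatid markers, Prm1, Prm2, Tnp1 and Acrv1 were listed at 0 in every library and the sum of all 8 never passed 0.438 TPM. The Sertoli cell marker Fshr was at 0 as well, and the summed level of 8 gonadal somatic markers was between 3.54 and 8.29 TPM.

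In WT ribodepleted RNA, the share of germline and meiosis genes over 1 TPM was near that of all genes, and in TKO it was larger. Taking the mean of a group, 27 of 53 members were over 1 TPM in WT at 0 h, 27 in WT at 4 h, 35 in TKO at 0 h, 34 in TKO at 4 h and 33 in WT polyA. The share over 1 TPM was 50.94% in WT at 0 h and 66.04% in TKO at 0 h, whereas among all genes listed it was 52.62% and 54.59%. Among members it was 50.94% in WT at 4 h, 64.15% in TKO at 4 h and 62.26% in WT polyA. Among all genes listed these shares were 51.44%, 53.91% and 52.71%. The median member stood at 1.01 TPM in WT at 0 h, 1.33 in WT at 4 h, 3.02 in TKO at 0 h, 3.06 in TKO at 4 h and 3.31 in WT polyA. The median over all genes above 0 in any library was higher, at 4.23, 3.49, 5.05, 4.47 and 4.37 TPM in the same order. A limit of 0.5 TPM gave 35 members in WT and 40 in TKO at 0 h, and a limit of 2 TPM gave 22 and 30.

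By group means, 24 of the 53 were over 1 TPM in every group and 15 in none. A further 14 passed it in some groups only. Among these, Slc25a31, Hormad2, Tdrd7, Tdrkh, Piwil4, Stra8 and Ldhc were over 1 TPM in both TKO groups and in neither ribodepleted WT group, and Tex12, Smc1b and Prdm9 only in WT polyA. In contrast, 8 members were over 10 TPM in every group: Ddx4, Syce2, Tex14, Tex19.1, Rpl10l, Stag3, Dnd1 and Rnf17. The most abundant in WT at 0 h was Syce2, a central element protein of the synaptonemal complex, at 80.6 and 85.7 TPM.

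**Figure D1:**
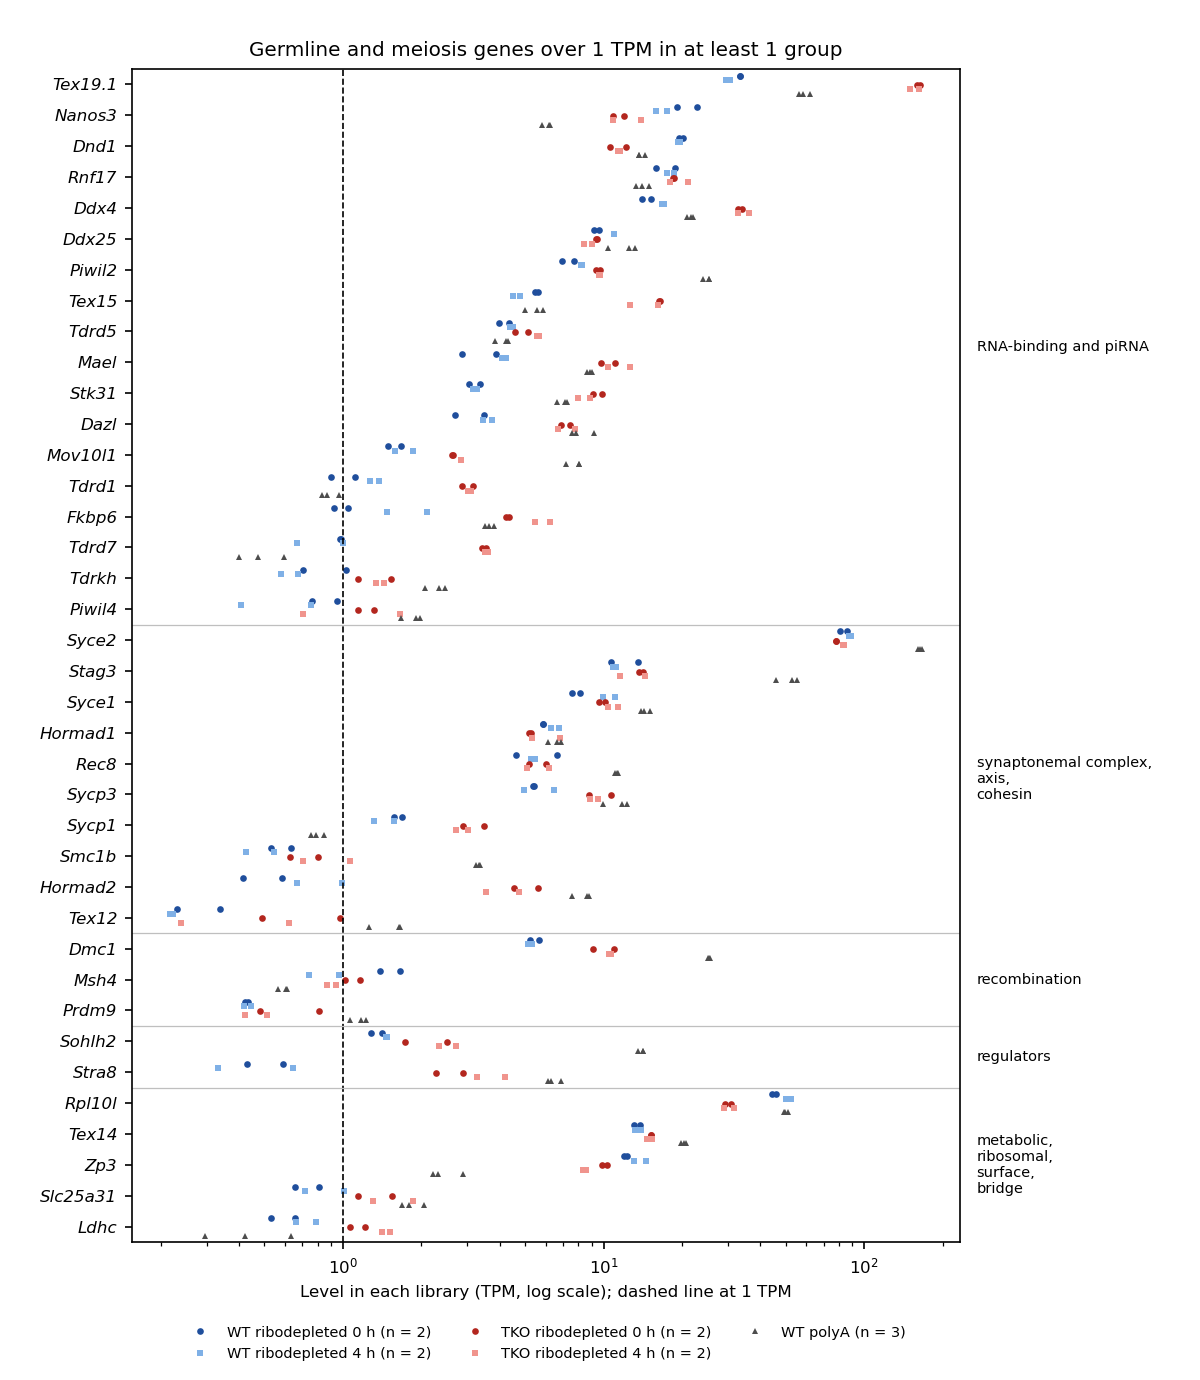
Level of the 38 members over 1 TPM in at least 1 group, in TPM on a log axis, with 1 point per library and genes grouped by role; the dashed line marks 1 TPM. Tex19.1 sits near 33 TPM in WT at 0 h and near 161 TPM in TKO at 0 h, and Hormad2 and Stra8 lie left of the line in both ribodepleted WT groups and right of it in TKO and polyA libraries.

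To ask how these transcripts differ between the genotypes, TKO was compared with WT at each time. Genotype and cell line changed together, so loss of the Tet enzymes and other differences between the lines cannot be told apart. The SE and adjusted p measure the spread between libraries and not between independent knockout lines. A gene was called when its adjusted p in limma was under 0.05 and its change over 1.5-fold on the log2(scaled TPM + 1) scale, where scaled TPM is TPM divided by a size factor. This scale understates the change of low genes. Of 33 members tested at 0 h, 14 were called higher and 3 lower in TKO, that is 42.4% and 9.09%. Over all 12467 genes tested, the shares were 10.5% higher and 5.43% lower. The median change of the tested members was 0.33 and that of all genes tested -0.019. At 4 h, 12 members were called higher and 3 lower, against 11% and 5.82% of all genes tested, with a median of 0.40 beside -0.0051. Without the filter, over all 53 members, the medians were 0.23 at 0 h and 0.17 at 4 h, and over the tested members they were 0.17 and 0.20 after quantile normalisation and 0.15 and 0.16 with a pseudocount of 5, each above that of all genes. At 4 h the split of all genes tested was 1375 higher and 725 lower, and 1927 and 449 on unscaled TPM or 1048 and 872 after quantile normalisation. A member passes the filter on low values more readily where it is high in 1 genotype, so these counts describe the tested members only. Tested members with a mean over 1 TPM in both TKO groups and in neither ribodepleted WT group were Hormad2, Stra8, Tdrd7, Slc25a31 and Tdrkh. Of these, Hormad2, Stra8 and Tdrd7 were called higher at both times. In bulk RNA, more cells carrying a transcript and more transcript per cell cannot be told apart.

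The 20 members under the filter were also read library by library. Over all 53 members, the libraries of both genotypes did not overlap for 46 at 0 h, 37 of them higher and 9 lower in TKO, where 37.2% of all genes above 0 lay higher and 33.1% lower without overlap. At 4 h, 32 lay higher and 7 lower, against 36.8% and 30.7% of all genes. Non-overlap of 2 libraries with 2 others is a weak criterion, as the shares over all genes show.

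The DNA upstream of the members was read because silencing of such genes is known to act at CpG-rich promoters, through an E-box (CACGTG, read the same on both strands) or an E2F site (TCCCGC on the strand of the gene and GCGGGA where the site is on the other). RefSeq promoter windows on GRCm38.p6, from 250 bases before to 50 after a start, were given for 47 of the 53 members. Entries for Tex15, Tdrd6, Piwil2, Spo11, Dnd1 and Rnf17 were not in the table. All 58 windows of these members matched NCBIM37 exactly and once. With the first window of each gene, the E-box occurred in 17 of 47 members, 36.2%, and in 7.24% of 27025 genes, and the E2F site in 20 members, 42.6%, and in 20% of genes. The median window held 18 CpGs in the members and 7 over all genes. Of the members called higher in TKO at 0 h, 7 of 13 with a window held the E-box, as did 6 of 14 tested and not called, 4 of 18 not tested and 0 of 2 called lower. The E-box thus occurred in called and in uncalled members. A match is a description of letters and says nothing of binding.

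The 150 bases before the start are printed 5′ to 3′ for the 6 members that were called higher and hold an E-box there, for Tex19.1 and Hormad2, whose changes at 0 h were largest on the log2(scaled TPM + 1) scale, and for Nanos3, which was lower. Capitals mark the E-box and the E2F site on either strand, which can overlap by no more than an end base. In NCBIM37 they lie at chr13:113442519-113442668, minus strand (Ddx4), chr5:135825915-135826064, minus strand (Fkbp6), chr6:49345388-49345537, plus strand (Stk31), chr19:56900549-56900698, plus strand (Tdrd1), chr3:102740024-102740173, minus strand (Sycp1), chr10:87922182-87922331, plus strand (Sycp3), chr11:121007307-121007456, plus strand (Tex19.1), chr11:4341086-4341235, minus strand (Hormad2) and chr8:86700452-86700601, minus strand (Nanos3).
Ddx4: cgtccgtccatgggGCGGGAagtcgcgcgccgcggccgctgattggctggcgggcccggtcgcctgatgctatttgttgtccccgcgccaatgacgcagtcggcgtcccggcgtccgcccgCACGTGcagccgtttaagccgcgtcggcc
Fkbp6: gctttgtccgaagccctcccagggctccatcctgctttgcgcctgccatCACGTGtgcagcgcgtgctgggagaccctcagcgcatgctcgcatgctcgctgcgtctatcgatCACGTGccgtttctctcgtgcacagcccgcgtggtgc
Stk31: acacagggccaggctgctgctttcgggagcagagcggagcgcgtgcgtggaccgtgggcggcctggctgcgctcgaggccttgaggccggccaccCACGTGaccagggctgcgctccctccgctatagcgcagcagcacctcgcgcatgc
Tdrd1: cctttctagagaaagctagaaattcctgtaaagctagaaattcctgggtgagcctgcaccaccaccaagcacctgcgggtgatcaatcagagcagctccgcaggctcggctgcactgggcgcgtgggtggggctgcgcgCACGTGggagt
Sycp1: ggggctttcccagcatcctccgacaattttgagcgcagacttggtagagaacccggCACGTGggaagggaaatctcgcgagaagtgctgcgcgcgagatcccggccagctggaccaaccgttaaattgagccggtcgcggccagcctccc
Sycp3: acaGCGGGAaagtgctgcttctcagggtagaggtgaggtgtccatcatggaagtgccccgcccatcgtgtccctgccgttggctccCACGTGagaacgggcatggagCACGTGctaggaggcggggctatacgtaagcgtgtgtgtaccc
Tex19.1: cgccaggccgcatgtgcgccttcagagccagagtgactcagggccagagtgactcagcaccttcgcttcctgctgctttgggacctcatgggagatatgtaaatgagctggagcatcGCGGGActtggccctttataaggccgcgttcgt
Hormad2: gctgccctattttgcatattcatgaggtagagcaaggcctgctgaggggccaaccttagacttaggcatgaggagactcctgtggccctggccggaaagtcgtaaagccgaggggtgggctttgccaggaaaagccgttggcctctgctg
Nanos3: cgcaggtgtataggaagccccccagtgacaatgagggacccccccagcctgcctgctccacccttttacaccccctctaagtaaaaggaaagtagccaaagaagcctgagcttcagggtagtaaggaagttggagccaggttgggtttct

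These stretches held 26 CpGs for Ddx4, 16 for Stk31, 15 for Fkbp6, 14 for Sycp1, 10 for Sycp3, 9 for Tex19.1, 8 for Tdrd1, 4 for Hormad2 and 1 for Nanos3. Hormad2 held none of the letters marked. Tex19.1 held GCGGGA close to its start and no E-box in this stretch.

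The role group with most calls, germ cell RNA-binding proteins and the piRNA pathway, was also the largest. Of its 23 members, 17 were tested. At 0 h, 9 of these had higher and 2 lower calls in TKO, and at 4 h 9 and 1. For these and the role counts below, the shares over all genes tested were 10.5% higher and 5.43% lower at 0 h. At 4 h these shares were 11% and 5.82%. Tex19.1, a placental and germ cell protein that restrains retrotransposons (chromosome 11, 121007457 to 121009633, plus strand, in NCBIM37, the mm9 assembly), had the largest change of the members on the log2(scaled TPM + 1) scale. It lay at 33.3 and 33.4 TPM in WT and at 163 and 159.9 TPM in TKO at 0 h. At 4 h it lay at 29.4 and 30.6 TPM in WT and 162 and 149 TPM in TKO. All TKO libraries were thus far above all WT libraries, with a change of 2.15 (SE 0.044, adjusted p = 2.26e-08) at 0 h and 2.18 (SE 0.044, adjusted p = 2.48e-08) at 4 h in limma. In scaled TPM with no pseudocount, TKO was 4.53-fold higher at 0 h and 4.64-fold at 4 h. By that measure the scarcer Hormad2 (9.54-fold at 0 h and 4.42-fold at 4 h) and Stra8 (4.77-fold and 6.83-fold) lay above it at 0 h, and Stra8 at 4 h.

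Fkbp6, a co-chaperone needed for piRNA loading (chromosome 5, 135767574 to 135825895, minus strand), lay at 0.923 and 1.04 TPM in WT and 4.35 and 4.23 TPM in TKO at 0 h. Its change was 1.33 (SE 0.14, adjusted p = 6.68e-05) in limma. Tex15, a nuclear protein that acts with Piwil4 in silencing transposons in male germ cells, lay at 5.60 and 5.48 TPM in WT and 16.5 and 16.3 TPM in TKO, a change of 1.32 (SE 0.089, adjusted p = 7.15e-06). The genotypes did not overlap for either gene at 0 h or at 4 h. At 4 h, Fkbp6 lay at 2.11 and 1.48 TPM in WT and 5.44 and 6.22 in TKO. At 4 h, Tex15 lay at 4.79 and 4.51 TPM in WT and 16.2 and 12.7 in TKO. Both were called again, with changes of 1.19 and 1.31 (adjusted p = 1.13e-04 and 7.24e-06 in limma).

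Mael, a component of the nuage that takes part in piRNA-guided silencing (chromosome 1, 168131516 to 168168875, minus strand), lay at 3.88 and 2.87 TPM in WT and 9.79 and 11.1 TPM in TKO at 0 h, a change of 1.31 (SE 0.13, adjusted p = 6.10e-05). Stk31, a kinase-like protein with a Tudor domain, lay at 3.05 and 3.36 TPM in WT and 9.08 and 9.85 in TKO, a change of 1.23 (SE 0.085, adjusted p = 7.81e-06). Tdrd7, a Tudor protein of germ granules, lay at 0.978 and 0.986 TPM in WT and 3.53 and 3.42 in TKO, a change of 1.10 (SE 0.11, adjusted p = 5.61e-05). For all 3, both TKO libraries were far above both WT libraries. At 4 h they were again called higher, with changes of 1.15 for Mael, 1.03 for Stk31 and 1.24 for Tdrd7 (adjusted p = 1.11e-04, 1.78e-05 and 2.52e-05 in limma).

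Of the classical germ cell markers, Ddx4, the Vasa RNA helicase (chromosome 13, 113388541 to 113442518, minus strand), lay at 15.2 and 13.998 TPM in WT and 32.8 and 34.0 TPM in TKO at 0 h, a change of 1.05 (SE 0.051, adjusted p = 1.39e-06). Dazl, a translational regulator of germ cells (chromosome 17, 50418719 to 50432924, minus strand), lay at 3.47 and 2.68 TPM in WT and 6.84 and 7.42 in TKO, a change of 0.92 (SE 0.10, adjusted p = 1.05e-04). Tdrd1, a Tudor partner of Piwi proteins, lay at 1.12 and 0.903 TPM in WT and 3.16 and 2.87 in TKO, a change of 0.93 (SE 0.098, adjusted p = 7.88e-05). All 3 transcripts were present in WT, and no TKO library was as low as a WT library. At 4 h they kept the call, with changes of 0.84, 0.71 and 0.71 for Ddx4, Dazl and Tdrd1 (adjusted p = 4.31e-06, 3.86e-04 and 3.12e-04 in limma).

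The opposite direction was seen for Nanos3 and Dnd1, RNA-binding proteins needed for survival of primordial germ cells. Nanos3 (chromosome 8, 86697632 to 86700451, minus strand) lay at 22.8 and 19.064 TPM in WT and 10.9 and 12.0 TPM in TKO at 0 h, a change of -0.90 (SE 0.10, adjusted p = 1.02e-04). At 4 h it lay at 15.8 and 17.5 TPM in WT and 13.9 and 10.9 in TKO, a change of -0.56 (SE 0.10, adjusted p = 0.00137), short of 1.5-fold. Dnd1 lay at 20.1 and 19.5 TPM in WT and 10.6 and 12.1 in TKO at 0 h, a change of -0.84 (SE 0.070, adjusted p = 2.17e-05). At 4 h its values were 19.4 and 19.7 TPM in WT and 11.4 and 11.5 in TKO, a change of -0.87 (SE 0.070, adjusted p = 1.66e-05). Every TKO library was thus under every WT library for both genes at both times. Dnd1 shares 38 of its exon bases with Wdr55 on the other strand in GENCODE vM1, and whether the counting used strand is not stated.

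The remaining tested members of the group were not called at either time. At 0 h their changes ran from -0.086 (95% CI -0.22 to 0.052) for Ddx25, a helicase of round spermatids, through 0.0062 (95% CI -0.17 to 0.19) for Rnf17, a ring finger and Tudor protein, 0.10 (95% CI -0.086 to 0.29) for the Tudor protein Tdrd5, 0.26 (95% CI 0.10 to 0.41) for Piwil2 and 0.27 (95% CI -0.020 to 0.56) for Tdrkh to 0.43 (95% CI 0.20 to 0.66) for Mov10l1, the helicase that starts piRNA production. Of these, Piwil2 and Mov10l1 had an adjusted p under 0.05 at 0 h (0.0112 and 0.00633 in limma). Piwil2, a Piwi protein, lay at 7.68 and 6.91 TPM in WT and 9.34 and 9.68 in TKO. At 4 h the change of Ddx25 was -0.45 (SE 0.061, adjusted p = 2.66e-04), short of 1.5-fold, with 11.010 and 10.969 TPM in WT and 9.002 and 8.40 in TKO. Tdrkh stood at 1.03 and 0.705 TPM in WT and 1.53 and 1.14 in TKO at 0 h.

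Among the 11 proteins of the synaptonemal complex, the chromosome axis and meiotic cohesin, 8 were tested. At 0 h 3 were called higher and 0 lower in limma, and the changes of 7 of the 8 had 95% intervals lying under 1 on the log2 scale. The exception was Hormad2, an axis protein of the meiotic surveillance of unpaired chromosomes (chromosome 11, 4245817 to 4341108, minus strand), at 0.585 and 0.412 TPM in WT and 4.52 and 5.63 TPM in TKO at 0 h. At 4 h it lay at 0.995 and 0.666 TPM in WT and 4.73 and 3.53 in TKO. Its change was 1.93 (SE 0.15, adjusted p = 1.35e-05) at 0 h and 1.40 (SE 0.15, adjusted p = 6.95e-05) at 4 h. The WT values rest on few reads, since the ribodepleted WT libraries held 8 to 20 reads of this gene and the TKO libraries 64 to 100.

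Sycp3, the axial element protein (chromosome 10, 87922314 to 87935981, plus strand), lay at 5.35 and 5.43 TPM in WT and 10.6 and 8.82 TPM in TKO at 0 h, a change of 0.66 (SE 0.13, adjusted p = 0.00216). Sycp1, the transverse filament protein, lay at 1.68 and 1.57 TPM in WT and 3.49 and 2.90 in TKO, a change of 0.60 (SE 0.11, adjusted p = 0.00177), just over 1.5-fold. At 4 h both stayed apart between genotypes and lay under 1.5-fold, with changes of 0.48 (SE 0.13, adjusted p = 0.00987) for Sycp3 and 0.56 (SE 0.11, adjusted p = 0.00219) for Sycp1. Without TKO replicate 1 of 0 h, both fell short of 1.5-fold at 0 h as well, at 0.52 for Sycp3 and 0.49 for Sycp1, and Sycp1 did so at 0.58 without WT replicate 2 of 0 h. Sycp3 shares 52.2% of its exon bases with Chpt1 on the other strand in GENCODE vM1, so its level is uncertain where strand was not used in counting.

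The other 5 tested members of this group were not called. They were Syce1 and Syce2, of the central element, Stag3 and Rec8, of meiotic cohesin, and Hormad1, of the axis. Their changes at 0 h lay between -0.23 (95% CI -0.43 to -0.022) for Hormad1 and 0.21 (95% CI 0.038 to 0.39) for Syce1. Hormad1 lay at 5.87 and 5.87 TPM in WT and 5.16 and 5.25 in TKO, and Syce1 at 8.12 and 7.58 and 9.62 and 10.1 TPM. Syce2 lay at 80.6 and 85.7 TPM in WT and 77.8 and 78.2 in TKO, and Stag3 at 13.6 and 10.7 TPM in WT and 14.1 and 13.7 in TKO. These 5 members thus differed little between genotypes at 0 h. Among the tested members of the group, the scarce Hormad2 differed most. Sycp3, near the level of Hormad1 in WT, was called higher.

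Of 6 recombination genes, Dmc1 and Msh4 were tested. Dmc1, the meiotic strand exchange recombinase (chromosome 15, 79391930 to 79435529, minus strand), lay at 5.64 and 5.24 TPM in WT and 9.13 and 10.999 TPM in TKO at 0 h, a change of 0.69 (SE 0.088, adjusted p = 2.37e-04). At 4 h it lay at 5.30 and 5.15 TPM in WT and 10.7 and 10.5 in TKO, a change of 0.76 (SE 0.088, adjusted p = 1.15e-04). Dmc1 was therefore called higher at both times. Without TKO replicate 2 of 0 h its change at 0 h was 0.57, under 1.5-fold. Msh4, a crossover factor, lay at 1.65 and 1.39 TPM in WT and 1.02 and 1.16 in TKO at 0 h and was not called (-0.32, SE 0.12, adjusted p = 0.0427). Its TKO libraries were all lower than its WT libraries at that time.

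Of 5 regulators, Stra8 and Sohlh2 were tested. Stra8, the retinoic acid target that starts the meiotic programme (chromosome 6, 34870163 to 34889342, plus strand), lay at 0.590 and 0.428 TPM in WT and 2.89 and 2.29 TPM in TKO at 0 h, a change of 1.17 (SE 0.16, adjusted p = 3.94e-04). At 4 h it lay at 0.643 and 0.331 TPM in WT and 3.26 and 4.17 in TKO, a change of 1.61 (SE 0.16, adjusted p = 5.96e-05). The genotypes lay well apart at both times, on 7 to 14 reads per ribodepleted WT library and 44 to 82 per TKO library. Sohlh2, a basic helix-loop-helix factor of spermatogonia and oocytes, lay at 1.28 and 1.42 TPM in WT and 1.73 and 2.51 in TKO at 0 h. It was not called at 0 h (0.33, SE 0.14, adjusted p = 0.0626) or at 4 h (0.41, SE 0.14, adjusted p = 0.0265), although no TKO library was as low as a WT library at the same time.

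Among 8 metabolic, ribosomal, surface and bridge proteins, 4 were tested, 0 were called higher and 1 lower at 0 h. This was Rpl10l, the retrogene for a ribosomal protein that acts in place of its X-linked parent in meiosis (chromosome 12, 67384368 to 67385388, minus strand), at 44.2 and 45.9 TPM in WT and 31.0 and 29.3 TPM in TKO, a change of -0.66 (SE 0.055, adjusted p = 2.22e-05). At 4 h it lay at 50.2 and 52.2 TPM in WT and 31.6 and 29.0 in TKO, a change of -0.89 (SE 0.055, adjusted p = 4.34e-06). Reads of the near-identical parent gene could be counted to a retrogene, so this level is uncertain. Zp3, an egg coat glycoprotein (chromosome 5, 136455969 to 136464494, plus strand), was not called at 0 h (-0.34, SE 0.075, adjusted p = 0.00508) and was called lower at 4 h (-0.79, SE 0.075, adjusted p = 3.93e-05). Its values were 12.3 and 11.9 TPM in WT and 9.82 and 10.3 in TKO at 0 h, and 14.6 and 13.1 TPM in WT and 8.60 and 8.32 in TKO at 4 h. The genotypes did not overlap for Zp3 at either time. Tex14, of the intercellular bridge, lay at 13.8 and 13.1 TPM in WT and 15.2 and 15.2 in TKO at 0 h, a difference of 0.071 (95% CI -0.065 to 0.21). Slc25a31, the germline ADP/ATP carrier, differed by 0.38 (95% CI 0.013 to 0.74), with 0.813 and 0.656 TPM in WT and 1.55 and 1.15 in TKO. Neither was called.

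**Figure D2:**
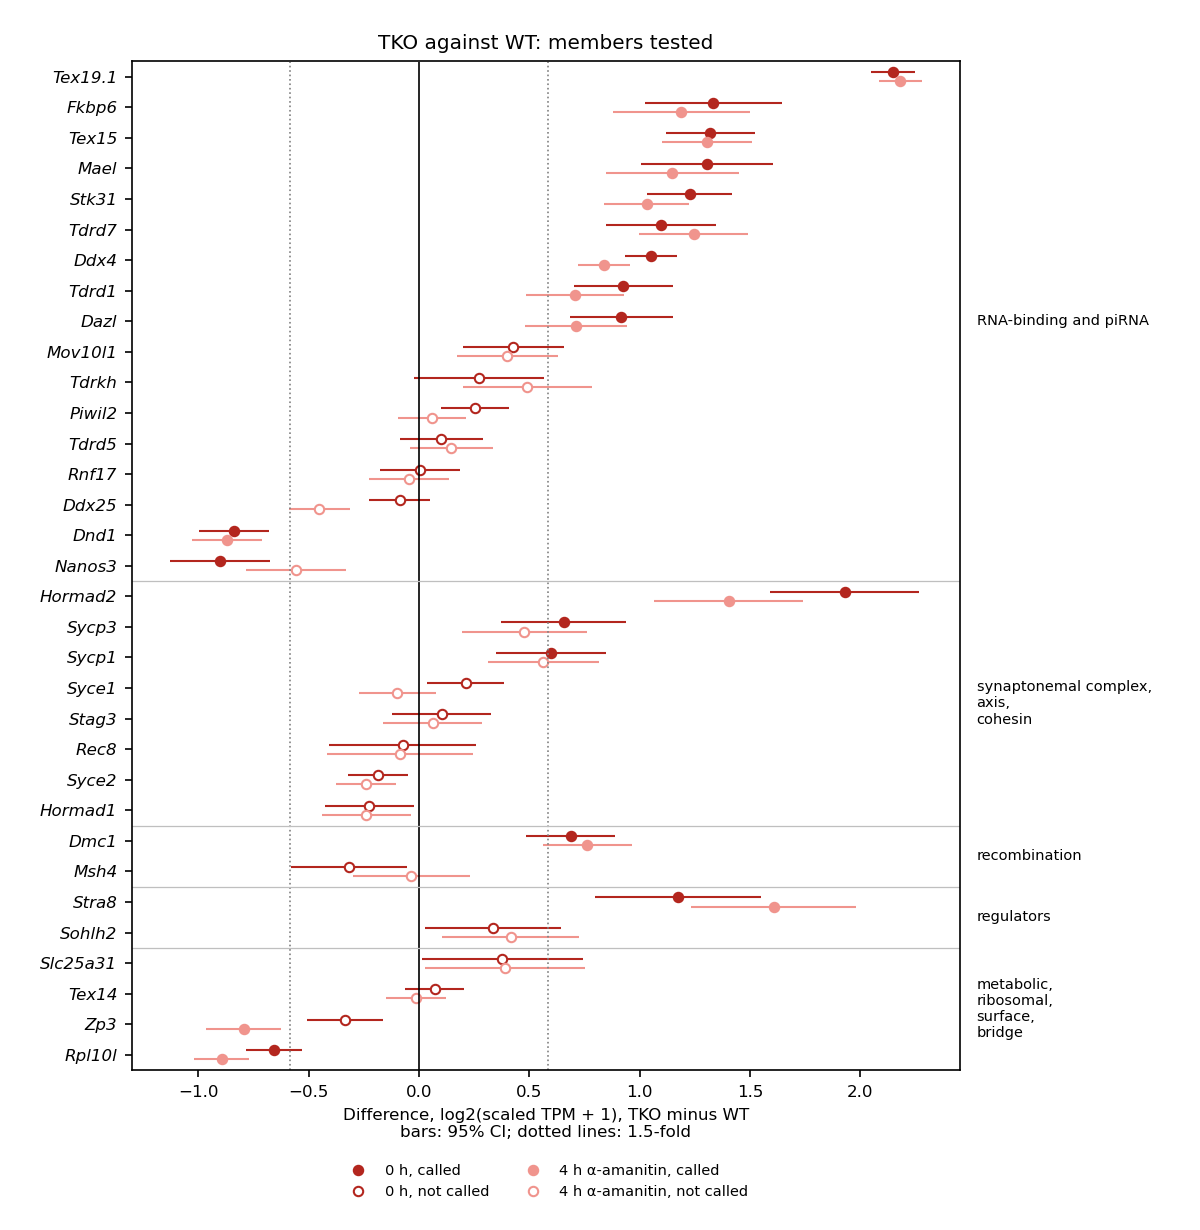
Difference between TKO and WT in log2(scaled TPM + 1) for the 33 members tested, before and 4 h into α-amanitin, with 95% confidence intervals and genes grouped by role; filled points were called and dotted lines mark 1.5-fold. Tex19.1 lies farthest to the right at both times, at 2.15 and 2.18, and Nanos3, Dnd1 and Rpl10l lie left of zero.

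The 20 members not tested in the ribodepleted libraries had a mean scaled TPM of at most 1. Piwil4, a nuclear Piwi protein, lay at 0.949 and 0.761 TPM in WT and 1.31 and 1.15 in TKO at 0 h. Ldhc, the germ cell lactate dehydrogenase, lay at 0.655 and 0.529 TPM in WT and 1.07 and 1.21 in TKO. Both were higher in each TKO library than in each WT library at 0 h. At 4 h the genotypes overlapped for Piwil4, at 0.405 and 0.757 TPM in WT and 1.65 and 0.702 in TKO. They did not for Ldhc, at 0.663 and 0.788 TPM in WT and 1.52 and 1.41 in TKO. Tex12, of the synaptonemal complex, Smc1b, of meiotic cohesin, and Prdm9, the histone methyltransferase that places recombination hotspots, reached at most 1.65, 3.35 and 1.22 TPM in any library, each in a polyA library. The other 15 stayed at or under 1 TPM in every group. Of the RNA-binding and piRNA genes, the highest value in any library was 0.724 TPM for Asz1, 0.294 for Tdrd6, 0.236 for Tdrd9, 0.239 for Piwil1 and 0.0497 for Nanos2. Sycp2 reached 0.565 TPM, Spo11 0.131, Mei1 0.464 and Msh5 0.894. Of regulators and others, Brdt reached 0.579 TPM, Nobox 0.581, Figla 0.290, Tex101 0.944, Dpep3 0.769 and Pgk2 0.142. Asz1, Spo11, Nobox, Figla, Pgk2 and Nanos2 were listed at 0 in at least 1 library. Spo11, which makes the meiotic breaks, had 0 to 3 reads per ribodepleted library. It is counted among the members without overlap between genotypes, on 1 and 2 reads in WT and 3 and 3 in TKO at 0 h, which shows how few reads can place a gene in that count.

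Other germline genes, outside the 53, were read for comparison. Of 27 further meiosis genes found, 16 were tested and 3 were called higher in TKO at 0 h: Ccdc36 (1.07, SE 0.10, adjusted p = 4.04e-05), 2410076I21Rik (Rec114, 0.89, SE 0.16, adjusted p = 0.00172) and Gm1564 (Meioc, 1.33, SE 0.094, adjusted p = 9.01e-06). In the same list 1 was called lower, Spata22, a recombination protein, at 3.03 and 2.99 TPM in WT and 0.366 and 0.237 in TKO (-1.64, SE 0.10, adjusted p = 4.53e-06). Of 25 other piRNA and germ cell genes, 15 were tested, 4 were higher (Boll, Cpeb1, Kit and Taf7l, by 0.83, 1.15, 0.73 and 1.08, adjusted p at most 4.29e-04 in limma) and 1 lower (Gtsf1l, -0.62, SE 0.059, adjusted p = 4.12e-05). The medians over the tested genes of these lists were -0.063 and 0.19, beside 0.33 over the tested members. For the counts of both lists, the shares over all genes tested were 10.5% higher and 5.43% lower at 0 h. They were 11% and 5.82% at 4 h. At 4 h the further meiosis genes had 3 higher and 3 lower, with Mnd1 (-0.60, SE 0.083, adjusted p = 3.03e-04) and Mns1 (-0.67, SE 0.068, adjusted p = 5.67e-05) beside Spata22, and the other germ cell genes had 3 higher and 1 lower. Under α-amanitin in WT, Prdm1 alone of these 2 lists was called, and was lower (-0.62, SE 0.10, adjusted p = 0.00617). Of all genes tested, 2.01% were called lower there.

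All 21 repressors of germline genes examined, of Polycomb complex PRC1.6, H3K9 methylation and DNA methylation, were tested. At 0 h 1 was higher in TKO, Yaf2 (0.62, SE 0.12, adjusted p = 0.00217), and 2 were lower, Rybp (-0.63, SE 0.069, adjusted p = 9.32e-05), its relative in PRC1, and Ehmt2, the H3K9 methyltransferase G9a (-0.72, SE 0.056, adjusted p = 1.42e-05). Ehmt2 lay at 137 and 127 TPM in WT and 85.4 and 85.1 in TKO. Of all genes tested, 10.5% were called higher and 5.43% lower at 0 h, so these counts do not set the repressors apart from other genes. The median change over the 21 was -0.15. At 4 h Yaf2 was again called higher and Ehmt2 lower, as was Cbx3 (-0.62, SE 0.056, adjusted p = 2.92e-05). The shares of all genes tested were then 11% higher and 5.82% lower. Markers of 2-cell-like cells also differed with genotype. Their summed level over 6 genes was 0.216 to 0.306 TPM in WT and 9.89 to 9.91 TPM in TKO at 0 h, with Tcstv1 and Tcstv3 called higher, and 12.7 to 15.0 TPM in WT polyA. The summed level of 7 primordial germ cell markers was 231.1 to 234 TPM in WT and 254 to 256 TPM in TKO at 0 h, and of these Kit was called higher and Dnd1 and Nanos3 lower. Of 8 fibroblast markers, 1, Col1a2, was called higher, with sums of 8.58 to 8.66 TPM in WT and 13.6 to 14.3 TPM in TKO. Of 8 oocyte markers, Oosp1 was at 0 in every library and Zp3 and Ooep gave most of the summed 59.9 to 145 TPM. The part of these cells in the members' differences was not tested.

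To see how the transcripts fared without new transcription, 4 h of α-amanitin was compared with 0 h in each genotype. TPM are relative, so a loss shared by all transcripts cannot be seen, and a higher value after α-amanitin means a larger share of the RNA that remained. In WT, 1 of 33 members was called higher and 0 lower, against 0.0882% and 2.01% of all genes tested (11 and 251 genes). The member was Fkbp6, at 0.923 and 1.04 TPM at 0 h and 2.11 and 1.48 at 4 h, a change of 0.59 (SE 0.14, adjusted p = 0.0135), which is at the limit of 1.5-fold and was lost on unscaled TPM. The call was also lost without WT replicate 1 of 0 h (0.53, adjusted p = 0.0753), without WT replicate 1 of 4 h (0.41, adjusted p = 0.0819) and, at 0.58, without either TKO library of 0 h or TKO replicate 1 of 4 h. Without WT replicate 2 of 4 h, 2 members were called higher. The adjusted p of Fkbp6 ran from 0.00981 to 0.0819 over the alternatives. The count of members lower was 0, while 17 of the 33 had an unadjusted p under 0.05 in limma, 12 an adjusted p under 0.05, and limma voom on recovered reads called 1 lower and 1 higher. The count by unadjusted p was not made over all genes. Voom called 382 of all genes tested lower and 34 higher.

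Of the 12 members with an adjusted p under 0.05 in WT, 11 had a larger share after α-amanitin and 1 a smaller, that is 33.3% and 3.03% of the members tested. By the same criterion 21.9% of all genes tested had a larger and 15.8% a smaller share. Among these 12, the largest changes after Fkbp6 were 0.52 (SE 0.076, adjusted p = 0.00533) for Syce1, 0.35 (SE 0.061, adjusted p = 0.00671) for Ddx25, 0.35 (SE 0.051, adjusted p = 0.00533) for Ddx4 and 0.34 (SE 0.055, adjusted p = 0.00603) for Rpl10l. Syce1 went from 8.12 and 7.58 TPM at 0 h to 11.1 and 9.93 TPM at 4 h and Ddx4 from 15.2 and 13.998 to 16.7 and 17.028. The exception was Msh4, at 1.65 and 1.39 TPM at 0 h and 0.964 and 0.745 at 4 h (-0.37, SE 0.12, adjusted p = 0.0364). The median change of the 33 members was 0.18, and 27 were above zero, where the median of all genes tested was 0.028. On unscaled TPM these medians were 0.075 and -0.11.

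By libraries that did not overlap, 28 of 53 members were higher and 4 lower at 4 h in WT, against 32.6% and 26.8% of all genes above 0. This count depended on scaling, with 18 higher and 11 lower on unscaled TPM, where 14.03% of all genes lay higher and 43.12% lower. In TKO, 20 of 52 members above 0 were higher and 5 lower without overlap, against 27.3% and 21.9% of all genes, and 10 and 8 on unscaled TPM, where the shares of all genes were 12.96% and 35.03%. In both genotypes unscaled TPM thus turned the split of all genes.

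In TKO, 0 of 33 members were called in either direction after α-amanitin, where 0% of all genes tested were called higher and 0.16% lower. In limma 7 members had an unadjusted p under 0.05, a count not made over all genes. The lowest adjusted p in limma was 0.131, and limma voom called 0 members. Without TKO replicate 1 of 4 h, 1 member was called higher. The median change was 0.10 for members and 0.013 for all genes tested. Among the members called higher in TKO over WT, Tex19.1 went from 163 and 159.9 TPM at 0 h to 162 and 149 at 4 h (0.042, 95% CI -0.057 to 0.14), Ddx4 from 32.8 and 34.0 to 36.1 and 32.8 (0.14, 95% CI 0.020 to 0.25) and Tex15 from 16.5 and 16.3 to 16.2 and 12.7 (-0.092, 95% CI -0.30 to 0.11). The widest interval was that of Stra8, at 2.89 and 2.29 TPM at 0 h and 3.26 and 4.17 at 4 h (0.46, 95% CI 0.088 to 0.84). TKO replicate 2 of 4 h was the lower of its pair for both Tex19.1 and Tex15.

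The response to α-amanitin was then compared between genotypes by the interaction term. No member was called, as was no gene of the 12467 tested (0% in each direction). In limma 7 members had an unadjusted p under 0.05, a count not made over all genes. The lowest adjusted p among members in limma was 0.652, and limma voom called 0. With 2 libraries per group, the intervals of these differences were wide, for example -0.53 (95% CI -1.001 to -0.050) for Hormad2 and 0.43 (95% CI -0.10 to 0.96) for Stra8, so the result does not show that the genotypes responded alike.

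**Figure D3:**
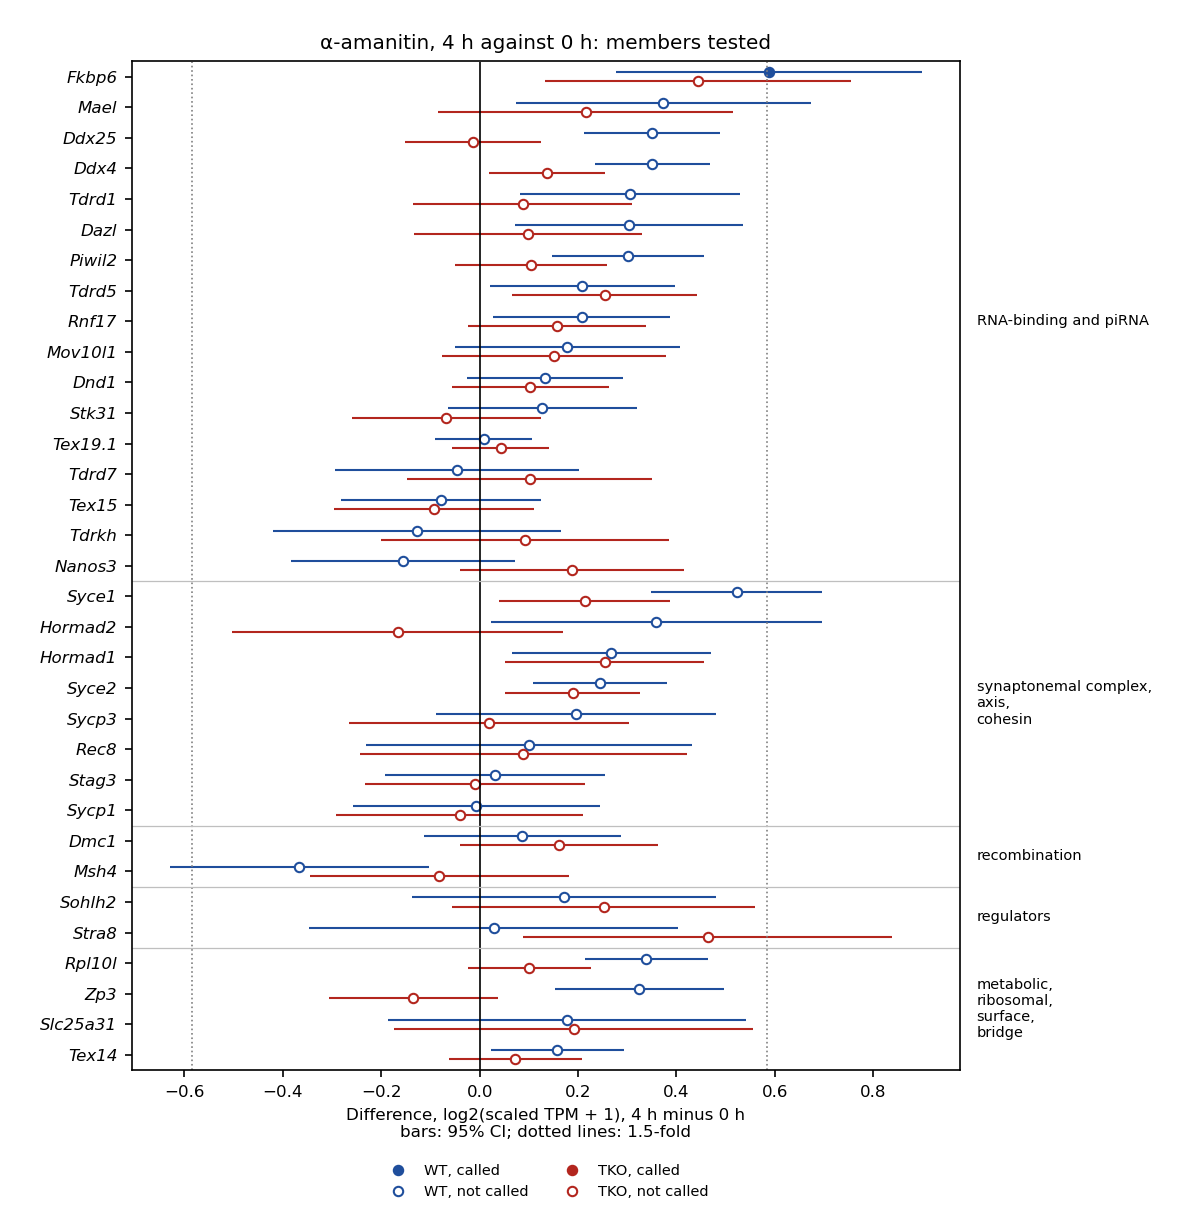
Difference between 4 h and 0 h of α-amanitin in log2(scaled TPM + 1) for the 33 members tested, in WT and in TKO, with 95% confidence intervals and genes grouped by role; filled points were called and dotted lines mark 1.5-fold. Most points lie right of zero and inside the dotted lines, and the only filled point is Fkbp6 in WT, at 0.59.

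PolyA-selected and ribodepleted libraries of untreated WT cells were compared to see how the members' levels depended on the RNA that was sequenced. The selection of RNA and the experiment changed together, so they cannot be told apart. The comparison shares its WT libraries of 0 h with that of TKO and WT. Of 33 members tested in these 5 libraries, 20 were called higher in polyA and 3 lower, against 18.7% and 16.4% of 12478 genes. The median change was 0.77 beside -0.0075 for all genes tested, and 0.37 beside 0.0040 without the filter, over all 53 members. The filter is a mean over 3 polyA and 2 ribodepleted libraries and so favours genes that are high in polyA. Of the 33, 8 lay at or under 1 TPM in ribodepleted WT RNA, namely Fkbp6, Hormad2, Piwil4, Slc25a31, Smc1b, Stra8, Tdrkh and Tex12, and 7 of these (not Piwil4) were called higher. Msh4 and Tdrd1, over 1 TPM in ribodepleted WT RNA at 0 h and under it in polyA, were not tested, so these counts describe the tested members only. By role, 8 of 10 tested members of the synaptonemal complex, axis and cohesin were higher, 8 of 16 RNA-binding and piRNA genes, 2 of 2 regulators, 1 of 1 recombination gene and 1 of 4 others.

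The largest differences were those of Sohlh2, at 14.2, 13.5 and 14.2 TPM in polyA against 1.28 and 1.42 in ribodepleted RNA (2.60, SE 0.066, adjusted p = 6.96e-09), Hormad2, at 8.64, 7.56 and 8.77 against 0.585 and 0.412 (2.58, SE 0.090, adjusted p = 3.98e-08), and Stra8, at 6.30, 6.87 and 6.13 against 0.590 and 0.428 (2.24, SE 0.078, adjusted p = 3.90e-08). These 3 genes lay between 0.4 and 1.5 TPM in ribodepleted WT RNA and above 6 TPM in polyA RNA. Dmc1 lay at 25.2, 25.5 and 25.5 TPM in polyA against 5.64 and 5.24 (1.94, SE 0.047, adjusted p = 5.16e-09), Stag3 at 53.0, 55.3 and 45.9 against 13.6 and 10.7 (1.90, SE 0.090, adjusted p = 2.04e-07), and Piwil2 at 25.4, 25.4 and 24.1 against 7.68 and 6.91 (1.55, SE 0.050, adjusted p = 2.45e-08). These 6 genes had no polyA library within the range of the ribodepleted ones. Of the other members called higher, Mov10l1, Smc1b, Fkbp6, Mael and Dazl changed by 1.69, 1.39, 1.17, 1.10 and 1.09, and Tex12, Syce2, Sycp3, Stk31, Rec8, Tdrkh, Syce1, Tex19.1 and Slc25a31 by between 0.66 and 0.93.

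Zp3, Nanos3 and Sycp1 went the other way. Zp3 lay at 2.31, 2.88 and 2.22 TPM in polyA and 12.3 and 11.9 in ribodepleted RNA (-2.01, SE 0.084, adjusted p = 1.02e-07), and Nanos3 at 6.26, 6.18 and 5.83 TPM in polyA and 22.8 and 19.064 in ribodepleted RNA (-1.72, SE 0.068, adjusted p = 7.30e-08). Sycp1 lay at 0.757, 0.849 and 0.788 TPM in polyA and 1.68 and 1.57 in ribodepleted RNA (-0.60, SE 0.082, adjusted p = 1.47e-04), and its call was lost at -0.58 without polyA replicate 1. With polyA replicate 3 left out, 5 members in place of 3 were called lower. The other tested members were not called, from -0.57 (SE 0.051, adjusted p = 9.40e-06) for Dnd1 to 0.56 (SE 0.090, adjusted p = 3.92e-04) for Piwil4.

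The WT level read by each kind of library differed by gene, as the group means set side by side show. Hormad2 had 8.32 ± 0.663 TPM in WT polyA (SD, n = 3), 5.07 ± 0.785 in TKO and 0.499 ± 0.122 in WT ribodepleted RNA at 0 h (SD, n = 2). Tex19.1 had 58.8 ± 2.67, 161 ± 2.17 and 33.3 ± 0.107 TPM in the same order. Tdrd7 had 0.490 ± 0.0992, 3.48 ± 0.0776 and 0.982 ± 0.00622 TPM. Of the 14 members called higher in TKO at 0 h, the mean of WT polyA was above that of TKO for 5, Dazl, Dmc1, Hormad2, Stra8 and Sycp3, and under it for the other 9, Tex19.1 and Tdrd7 among them. The polyA and TKO libraries differ in RNA selection as well as genotype.

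**Figure D4:**
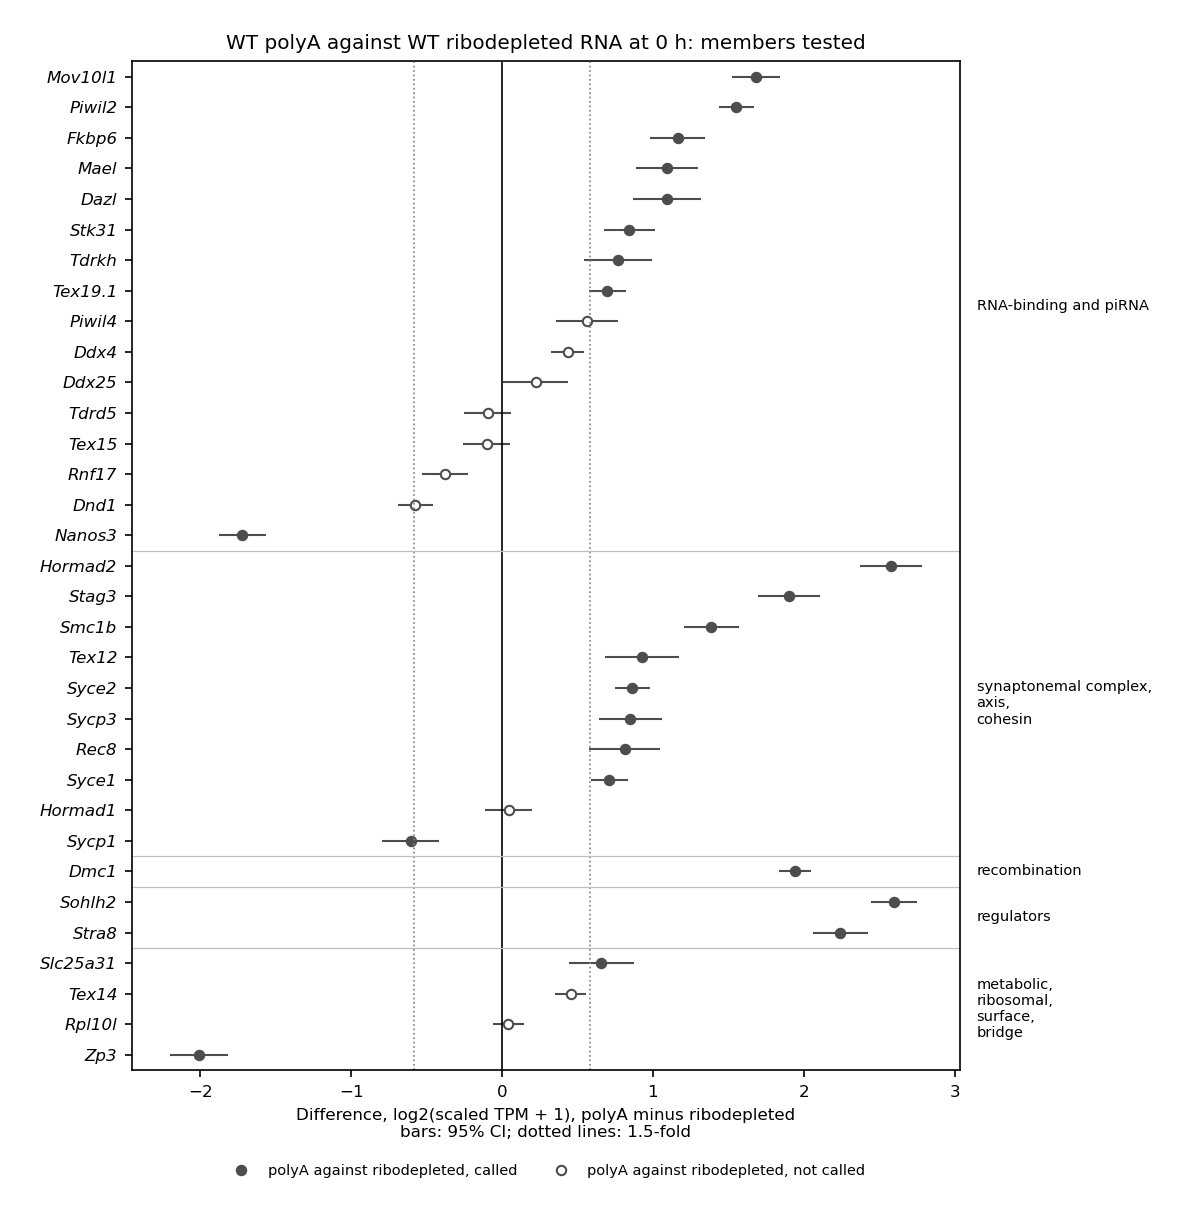
Difference between WT polyA (n = 3) and WT ribodepleted (n = 2) libraries of 0 h in log2(scaled TPM + 1) for the 33 members tested, with 95% confidence intervals and genes grouped by role; filled points were called and dotted lines mark 1.5-fold. Sohlh2 and Hormad2 lie farthest right, at 2.60 and 2.58, and Zp3 farthest left, at -2.01.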

How the data were processed

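RNA-seq was read in 11 libraries of mouse ESCs, with TPM per gene as the unit. The authors removed low-complexity, rRNA and tRNA reads, trimmed with Trimmomatic, aligned to mm9 with STAR and RefSeq genes, counted with HTSeq, and deposited the TPM made from those counts; versions and the strand setting are not given in the sources used here. Each library was scaled by a size factor, the median ratio of its TPM to the geometric mean over libraries. Genes with a mean scaled TPM over 1 were tested by limma 3.58.1 (R 4.3.3, moderated with a trend) on log2(scaled TPM + 1), over the 8 ribodepleted libraries, and separately over the 5 libraries of WT polyA and WT 0 h. Calls needed a Benjamini-Hochberg adjusted p under 0.05 over all genes tested and a change over 1.5-fold, and tests were two-sided. Whole reads up to a factor common to a gene's libraries were recovered from the TPM steps for 100% of the 19869 genes above 0 and entered limma voom as an alternative. Replicates differed by more than sampling noise, with a lowest chi-square per degree of freedom of 1.53. The fits were tested on simulated data. Other scalings, pseudocounts, filters, the replicate block and leaving out each library were tried. The members and lists were chosen with earlier results of these data known. Every member was accounted for by name. Those called in any comparison or over 1 TPM in any group were described with values, the largest changes between TKO and WT at 0 h first, and where a role had more than 6 of them the rest by range. Of other genes, Tet1, Tet2, Tet3 and called genes of the added lists were named.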

Additional observations from a re-analysis of the deposited data

Results flagged for a closer look

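For 2 of 33 members tested, the libraries of 0 h and 4 h did not overlap in scaled TPM in either genotype. The direction in TKO was opposite to that in WT. The same count was not made over all genes, and non-overlap of 2 libraries with 2 others is a weak criterion. Of all genes above 0, 32.6% lay higher and 26.8% lower at 4 h without overlap in WT, and 27.3% and 21.9% in TKO. Whether 2 of 33 is more than the share among all genes is thus not known. Zp3, the egg coat glycoprotein, lay at 12.3 and 11.9 TPM in WT at 0 h and 14.6 and 13.1 at 4 h, and at 9.82 and 10.3 TPM in TKO at 0 h and 8.60 and 8.32 at 4 h. The change in TKO minus that in WT was -0.46 on the log2 scale, with an unadjusted p of 0.00218 and an adjusted p of 0.652 by the interaction term in limma. Nanos3, the survival factor of primordial germ cells, lay at 22.8 and 19.064 TPM in WT at 0 h and 15.8 and 17.5 at 4 h, and at 10.9 and 12.0 TPM in TKO at 0 h and 13.9 and 10.9 at 4 h. Its TKO libraries of 0 h and 4 h overlapped before scaling. The difference of the changes was 0.34, with an unadjusted p of 0.0384 and an adjusted p of 0.662 in limma. Neither difference passed the threshold over all genes tested. Groups of 2 or 3 libraries are too small for a test of single outlying libraries.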

How the results depend on the processing

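The calls of single members as reported were followed under each alternative in which the member was tested. Of these values, 928 kept their direction and side of the threshold, 41 fell short of it and 0 reversed. Members that gained a call, or dropped out under the filter, are not in this count. Sycp1 at 0 h lost its call under 6 of 19 alternatives, Sycp3 at 0 h under 3 and Fkbp6 in WT under α-amanitin under 8. Rpl10l at 0 h fell short at -0.56 on unscaled TPM. In WT under α-amanitin, members called higher numbered 0 on unscaled TPM, with a pseudocount of 5 or with only the 4 libraries compared, 2 with quantile normalisation or a pseudocount of 0.1, and 11 with no fold threshold. Of all 12467 genes tested, 4 were called higher there on unscaled TPM, 1 with a pseudocount of 5 and 18 with quantile normalisation. A pseudocount of 0.1 gave 33 such genes and no fold threshold 2730. Members called lower in WT under α-amanitin numbered 1 with a pseudocount of 0.1, with no fold threshold or with voom. Over all genes tested, these settings called 374, 1965 and 382 lower. Between TKO and WT at 0 h, a pseudocount of 5 left 7 called higher, where 550 of the 12467 genes tested were. With no fold threshold, 6 members were lower at 0 h and 7 at 4 h, that is 18.18% and 21.21%. Over all genes tested, 28.22% and 30.31% were lower by that criterion. For polyA, a pseudocount of 5 left 12 higher, where 1500 of 12478 genes tested were. No fold threshold gave 5 lower in polyA, that is 15.15% of members against 40.81% of all genes tested. A pseudocount of 5 shrinks the change of low genes by construction. For the others the cause was not tested. Leaving out 1 library at a time gave 12 to 14 members higher in TKO at 0 h and at 4 h, 0 to 2 higher in WT under α-amanitin, 0 to 1 higher in TKO under α-amanitin, and 3 to 5 lower in polyA. Where this left a group with 1 library, that library was assumed to vary like the other groups. On unscaled TPM, chosen as an alternative after seeing the data, members whose libraries did not overlap numbered 18 higher and 11 lower in WT (14.03% and 43.12% of all genes) and 10 and 8 in TKO (12.96% and 35.03%) under α-amanitin. Unscaled TPM moved the median of all genes tested to 0.14 for TKO against WT at 4 h and to -0.11 for α-amanitin in WT, and the split of all genes at 0 h to 1596 higher and 518 lower (1088 and 841 with quantile normalisation, 1309 and 677 as reported).

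With the replicate block, the counts of members called stayed at 14 higher and 3 lower at 0 h, 12 and 3 at 4 h, and 1 and 0 for α-amanitin in WT. Deviations of same-numbered libraries correlated at r = -0.044 to 0.12, so no large effect shared by same-numbered libraries was seen. Whether such libraries were prepared together is not given in the sources used here. Depth limits the members under 1 TPM, several of which rest on under 20 reads per ribodepleted library.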
